A study of Mus musculus with 41 samples.

Results

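Immediate early genes are switched on by growth signals without new protein synthesis, and their products decay quickly once the signal stops. Several of them encode the AP-1 transcription factor, a dimer of a Fos family and a Jun family protein, and the ERK branch of the MAPK pathway, which BRAF feeds, both induces these genes and stabilises some of their proteins. The genes described here were the Fos family genes Fos, Fosb, Fosl1 and Fosl2, the Jun family genes Jun and Junb, the zinc finger factor gene Egr1, the early response genes Ier2 and Ier3, and Myc. They were taken by name, as every probe set that names one of them and no other gene, which gave 10 genes of 18194 on the arrays and 13 probe sets of 34958.

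RNA of 41 melanomas from iBIP mice had been hybridised to Affymetrix mouse genome arrays. The labels describe the model as BRAF-driven and give no alleles. From the literature on the model, as background, its melanocytes carry a doxycycline-inducible mutant BRAF transgene together with loss of Ink4a/Arf, which remains when doxycycline is withdrawn, so every group shares it. Each tumour was cut from the mouse after a stated number of days without doxycycline in the water. The comparisons used tumours of day 1 (n = 7), day 2 (n = 5), day 3 (n = 6), day 6 (n = 4), day 9 (n = 3) and 10 late tumours (days 63, 77, 90, 121, 136 and 163 pooled), set against 4 tumours of day 0. Days 16 and 29 had 1 tumour each and were given as values. Whether late tumours had regrown is not stated in the labels, nor is it stated that tumours came from separate mice, so p values measure the spread between these samples. Ages and sexes were not given in the sources used here.

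All values are log2(intensity + 16) after quantile normalisation between arrays, and a change is the difference of 2 group means on that scale, with its standard error (SE). A gene was called when its limma p, adjusted over all 14319 genes tested by the Benjamini-Hochberg method, was under 0.05. All 10 genes passed the filter on low values, which asked for a value above the 40th percentile of the array in at least 3 arrays. Fosb was the dimmest of them and passed on 11 of 41 arrays. Where a gene had 2 probe sets, the one with the higher mean was used and the other is described beside it.

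Some features of the arrays run along with the days. Spike-in controls put the arrays into 3 sets: set 1 was made of every tumour from days 2, 3 and 6 plus 1 from day 1, set 2 of 6 from day 1 and 8 late tumours, and set 3 of days 0, 9, 16 and 29 plus 2 late tumours. Days 1, 2, 3 and 6 therefore shared no set with day 0, and set and day cannot be told apart directly in those comparisons. The 3′ minus 5′ signal of the Gapdh controls, called the Gapdh gap here and a measure of RNA degradation, averaged 2.62 ± 1.38 (SD, n = 10) in late tumours, 1.22 ± 0.99 (n = 3) at day 9 and 0.45 ± 0.12 (n = 4) at day 0, and it was over 2 in 8 late tumours and in 1 of day 9. Of the 11 melanocyte markers on the array 9 passed the filter. Against day 0, 4 of these 9 were called higher in late tumours and 0 lower, where 26.3% of all genes were called higher. Mitf was among the 4 (change 1.22 ± 0.28, adjusted p = 0.000525). Sox10 averaged 10.06 in late tumours and 10.26 at day 0, whereas Tyr and Gpr143 did not pass the filter. At day 2, 1 of the 9 was called lower and 0 higher, against 8.35% and 6.74% of all genes. At day 6, 1 was called lower and 2 higher, against 6.46% and 5.74%. The marker called lower on both days was Sox10 (-1.05 ± 0.30 and -1.04 ± 0.32, adjusted p = 0.0159 and 0.0278). The mean of the melanocyte list ran from 6.19 to 7.47 in late tumours, against 6.20 to 6.49 at day 0. Among the tumours of day 0, replicate 1 had the highest value in 9 of the 10 genes. The late tumour of day 136 was the highest late tumour for Fosl1, Ier2, Ier3 and Myc.

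After withdrawal the calls differed between the immediate early genes, although every gene had a mean below that of day 0 at days 1, 3 and 6. At day 3 the changes ran from -1.53 (Egr1) to -0.19 (Fosb). At day 2 Fos and Myc had a mean above that of day 0, as did Fosl2 at day 9 and in late tumours. Whether the changes differed between genes was not tested. Fosl1 was below day 0 in every tumour off doxycycline and was called from day 2 on. Egr1 was called lower at days 3 and 6, but not at day 9 or in late tumours. Junb, Ier2 and Ier3 were called lower at day 3 and in late tumours. Fos, Fosb and Myc were called in none of the 8 comparisons. No gene of the 10 was called higher than at day 0 on any day.

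The counts follow that picture. At day 1 against day 0, 0 of the 10 genes were called by limma, while 13.8% of all genes tested were (6.25% lower and 7.57% higher). At an unadjusted p under 0.05, 1 was lower. At day 2, 1 gene was called lower, against 15.1% of all genes called (8.35% lower and 6.74% higher). At day 3, 5 were called lower and 0 higher, where 21.3% of all genes were called, 11.6% lower and 9.74% higher. At day 6, 2 were called lower (12.2% of all genes called, 6.46% lower and 5.74% higher), and at day 9, 1 was (4.56%, 1.91% lower and 2.65% higher). In late tumours 5 were called lower, but 46.4% of all genes were called there, 20.1% lower and 26.3% higher, which is a higher background than that of day 3. One of the 5, Jun, had a second probe set that was called higher. Between late tumours and day 1, 5 were called lower and 1 higher, with 51.7% of all genes called, 22.8% lower and 28.9% higher. With the Gapdh gap as a covariate 2 were called lower there, Fosl1 and Egr1, and without tumours of a gap over 2 only Fosl1 was. The share of all genes called in those fits is not given here. Immune markers moved in the same comparison: 9 of 10 macrophage markers were called lower, with list means from 8.78 to 10.09 in late tumours and from 10.40 to 10.94 at day 1, and so were 10 of 10 T and NK cell markers. Their part in these changes was not tested. Between day 6 and day 2, which share spike-in set 1, 0 of the 10 genes and 0% of all genes were called, and 0 of the 10 had an unadjusted p under 0.05. The 6 comparisons with day 0 share its 4 tumours and are not independent of each other.

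The median change of the 10 genes was -0.36 on day 1, -0.32 on day 2, -0.63 on day 3, -0.42 on day 6, -0.51 on day 9 and -0.68 in late tumours. The median over all genes tested stayed between -0.02 and 0.05 in the same comparisons. In bulk tumours, fewer cells that express a gene and less RNA per cell cannot be told apart, which applies to every change given here.

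**Figure D1:**
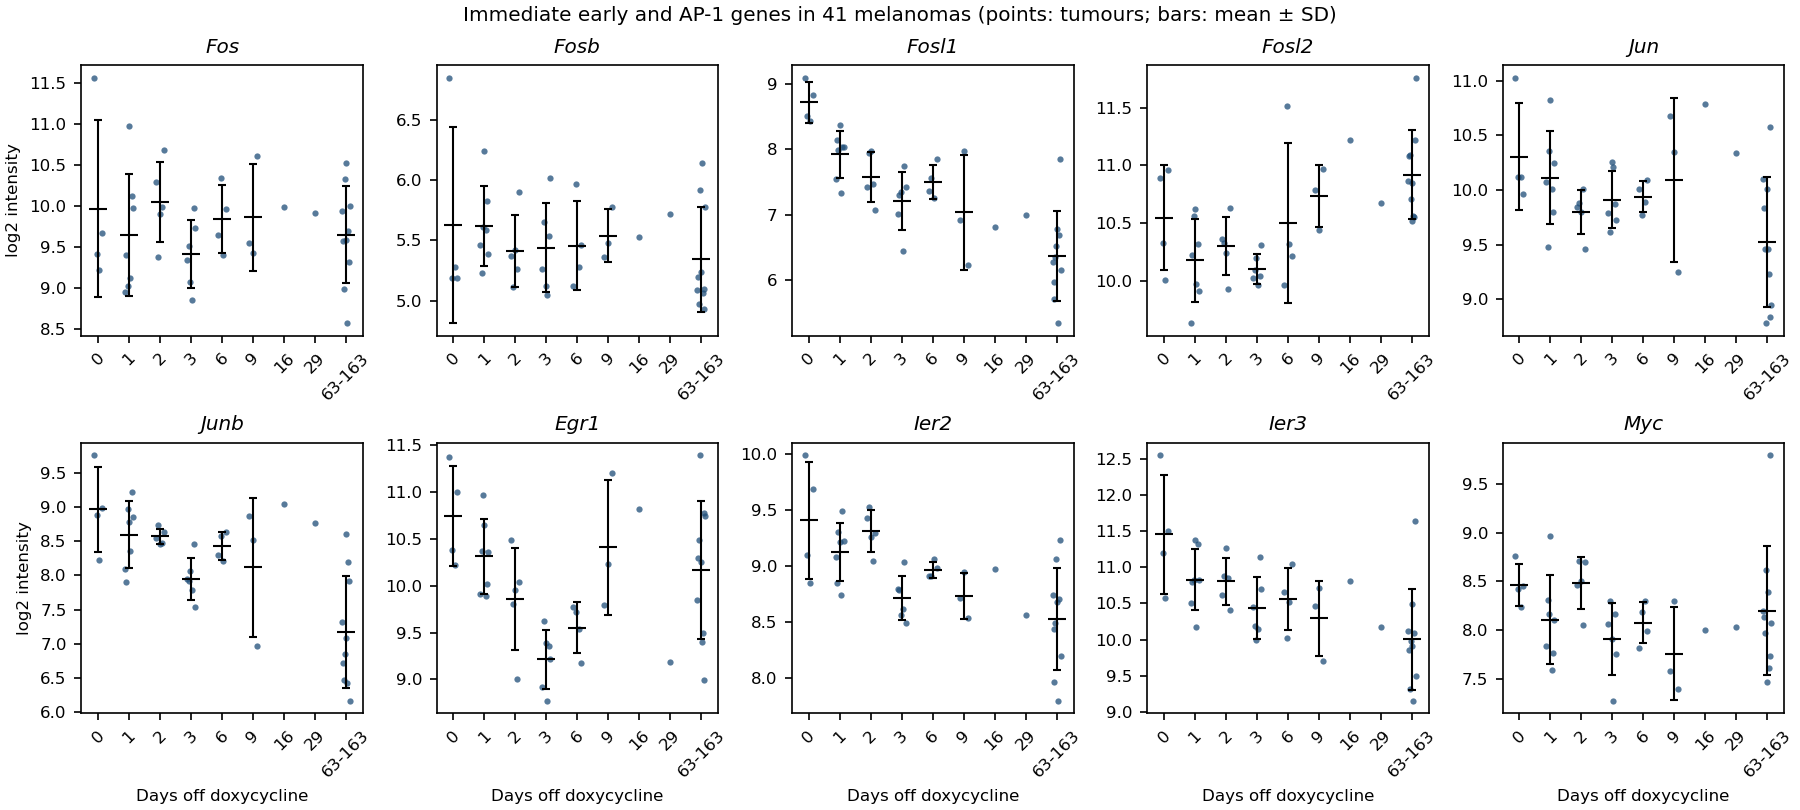
Log2 intensity of the 10 genes in each of the 41 tumours, by days off doxycycline; points are tumours and bars are the group mean ± SD. Fosl1 lay at or under 8.37 in every tumour off doxycycline and at or above 8.43 in the 4 tumours of day 0, and Egr1 had its lowest mean among groups of 3 or more tumours at day 3.

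**Figure D2:**
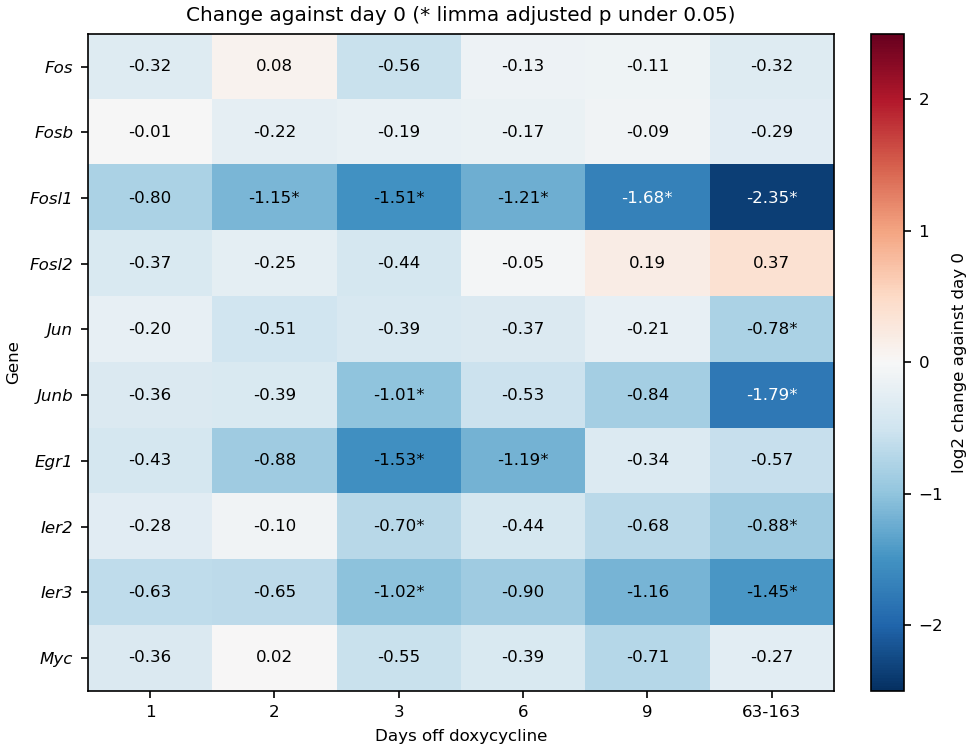
Log2 change of each gene against day 0 for days 1, 2, 3, 6 and 9 and the late tumours, with an asterisk where the limma adjusted p was under 0.05. Fosl1 carries asterisks from day 2 on, whereas Fos, Fosb and Myc carry none.

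Fos encodes the founding member of the AP-1 family, and its transcript is among the fastest to appear and to vanish after a stimulus. It measured 11.57, 9.42, 9.22 and 9.67 in the tumours of day 0. At day 3 it ran from 8.86 through a median of 9.42 to 9.98, across the lower tumours of day 0 and below them. Late tumours ran from 8.57 through a median of 9.65 to 10.53 and overlapped day 0 as well. The change was -0.56 ± 0.40 (SE) at day 3 (adjusted p = 0.337) and -0.32 ± 0.37 in late tumours (adjusted p = 0.494). The group means of Fos at days 1, 2, 6 and 9 were 9.65, 10.05, 9.84 and 9.86, against 9.97 ± 1.08 (SD, n = 4) at day 0. That SD was the widest of Fos in any group, and replicate 1 of day 0 set it.

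Fosb, a close relative of Fos that is likewise induced within minutes, was near the dim end of the array. Late tumours ran from 4.93 through a median of 5.15 to 6.14. Those of day 0 measured 6.85, 5.19, 5.28 and 5.19, so replicate 1 stood far above the other tumours of its group. The change in late tumours was -0.29 ± 0.25 (adjusted p = 0.349), and the changes at the earlier days lay between -0.22 and -0.01, none of them called.

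The Fos and Junb promoters are shown because, of the 6 members with an entry in the RefSeq promoter table (build GRCm38.p6), they and Fosb are the ones that hold TGACG, the core of the site of CREB and ATF factors. Each line gives the bases upstream of the annotated start site on the gene's own strand, 5′ to 3′, with TGACG in capitals. The Fos stretch is chr12:85473640-85473889 on the plus strand and the Junb stretch chr8:84978749-84978998 on the minus strand.
Fos: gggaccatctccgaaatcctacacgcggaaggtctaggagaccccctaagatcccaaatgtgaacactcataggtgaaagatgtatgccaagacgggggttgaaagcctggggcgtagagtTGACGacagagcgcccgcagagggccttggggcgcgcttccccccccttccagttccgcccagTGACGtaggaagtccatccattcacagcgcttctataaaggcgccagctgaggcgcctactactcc
Junb: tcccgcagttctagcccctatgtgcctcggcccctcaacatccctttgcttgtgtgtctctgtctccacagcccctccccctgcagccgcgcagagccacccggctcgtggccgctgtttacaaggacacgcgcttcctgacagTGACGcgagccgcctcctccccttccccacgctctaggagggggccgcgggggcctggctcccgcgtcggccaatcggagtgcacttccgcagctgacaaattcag
Fos held TGACG at 129 and 66 bases upstream of its start site, Fosb at 60 and Junb at 106, all on the gene's own strand. The Fosb start site of that table lies inside the gene span of the RefSeq gene table (chr7:19302696-19310118, minus strand), so its TGACG lies within the annotated gene and its stretch is not printed. Both strands were searched, and TGACG or its complement was in 20.81% of the 32851 promoters of the same length in that table. None of the windows of these 6 genes held the full site TGACGTCA (1.79% of all promoters), the AP-1 site TGANTCA (7.81%), the ETS core CCGGAA (14.9%) or a CArG box, the site of serum response factor (1.63%). TGACG also lies within TGACGTCA. A match is a stretch of letters in this window and does not show that a factor binds there.

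Fosl1 encodes FRA1, an AP-1 protein that ERK signalling both induces and protects from breakdown. In RefSeq GRCm38.p6 it lies at chr19:5447698-5455938. It measured 9.10, 8.51, 8.43 and 8.84 at day 0. The 7 tumours of day 1 ran from 7.34 through a median of 8.04 to 8.37, the 5 of day 2 measured 7.42, 7.94, 7.97, 7.47 and 7.07, and the 6 of day 3 ran from 6.45 through a median of 7.32 to 7.74. No tumour of these days reached the lowest tumour of day 0.

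The later days gave the same separation of Fosl1 from day 0. It measured 7.36, 7.56, 7.26 and 7.85 at day 6, then 6.92, 7.97 and 6.23 at day 9, 6.81 at day 16 and 7.0 at day 29. The late tumours ran from 5.34 through a median of 6.32 to 7.86, the highest being the tumour of day 136.

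Fosl1 changed by -0.80 ± 0.31 (SE) at day 1, which was not called (adjusted p = 0.0851). It was called lower at day 2 (-1.15 ± 0.34, adjusted p = 0.0188), at day 3 (-1.51 ± 0.32, adjusted p = 0.0013) and at day 6 (-1.21 ± 0.35, adjusted p = 0.0214). At day 9 the change was -1.68 ± 0.38 (adjusted p = 0.0109), and without replicate 3 of day 9, the tumour with a Gapdh gap over 2, it was -1.28 (adjusted p = 0.204). In late tumours Fosl1 was lower by 5.10-fold than at day 0 (change -2.35 ± 0.30, adjusted p = 2.29e-07), and with the Gapdh gap as a covariate the change was -1.86 (adjusted p = 0.000448). It was also lower in late tumours than at day 1 (-1.56 ± 0.25, adjusted p = 5.22e-06), and within spike-in set 2, which holds tumours of both, the change was -1.64 (adjusted p = 5.9e-05). With the Gapdh gap as a covariate it was -1.08 (adjusted p = 0.0145).

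The calls of Fosl1 at days 2 and 6 were lost without replicate 1 or 4 of day 0, and also without replicate 5 of day 2 or replicate 1 or 3 of day 6, with adjusted p up to 0.0702 and 0.0693. With a term for spike-in set, the change was -1.23 at day 3 with an adjusted p of 0.410, and the calls of days 2 and 6 were lost as well. That fit links days 2, 3 and 6 to day 0 only through the 1 tumour of day 1 in set 1 and, from set 2 on to set 3, the 2 late tumours of set 3. Within set 3, which holds all tumours of days 9 and 0, the day 9 change was -1.68 (adjusted p = 0.189), and for the 2 late tumours of that set it was -1.71 (adjusted p = 0.0629). The dimmer Fosl1 probe set, 1417488_at, averaged 5.31 ± 0.14 (SD, n = 10) in late tumours and 6.23 ± 0.10 (n = 4) at day 0. It was called lower in late tumours (-0.92 ± 0.14, adjusted p = 4.56e-06 over all one-gene probe sets) and at day 9 (-0.69 ± 0.18, adjusted p = 0.0246), and it was not called at days 1, 2, 3 and 6. Of all one-gene probe sets fitted singly, 13.8% were called on day 1, 17.3% on day 2, 24.5% on day 3, 17.1% on day 6, 5.22% on day 9 and 48.6% in late tumours.

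Fosl2 encodes FRA2, the other FRA protein of the AP-1 family. It measured 10.89, 10.33, 10.01 and 10.96 at day 0. The tumours of day 1 ran from 9.63 through a median of 10.22 to 10.62, and the late tumours from 10.52 through a median of 10.86 to 11.76. Late tumours overlapped day 0 and also day 1, at the upper edge of its range.

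Against day 0 Fosl2 was called on no day, with changes from -0.44 at day 3 to 0.37 ± 0.22 in late tumours (adjusted p = 0.164). Late tumours were higher than those of day 1 (0.75 ± 0.18, adjusted p = 0.00104), and within spike-in set 2 that change was 0.68 (adjusted p = 0.00155). This was the only rise called for the 10 genes in the 8 comparisons. The 2 late tumours with a Gapdh gap up to 2 measured 10.52 and 10.55, and the change from day 1 to them alone was 0.36 (adjusted p = 0.384). The dimmer Fosl2 probe set, 1422931_at, gave 0.04 ± 0.08 for late tumours against day 1 (adjusted p = 0.694), where 50.8% of all one-gene probe sets were called.

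Jun encodes the main dimer partner of the Fos proteins and also induces its own gene. In its brighter probe set, 1417409_at, the late tumours ran from 8.78 through a median of 9.46 to 10.58. Those of day 0 measured 11.03, 10.12, 10.12 and 9.96, and the groups overlapped. The change of -0.78 ± 0.26 was called (adjusted p = 0.0148), but without replicate 1 of day 0 it was -0.54 (adjusted p = 0.124).

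In the second Jun probe set, 1448694_at, the late tumours ran from 8.58 through a median of 9.88 to 10.26, and those of day 0 measured 9.36, 9.14, 9.29 and 9.21. Here 9 of the 10 late tumours lay above all 4 tumours of day 0, and the tumour of day 136 lay below them. The change was 0.47 ± 0.18 (adjusted p = 0.0252 over all one-gene probe sets), opposite in sign to that of the first probe set. The mean of both probe sets changed by -0.16 (adjusted p = 0.524). Against day 1 the late change was -0.59 ± 0.22 in the brighter probe set (adjusted p = 0.0248), and the call was lost without replicate 3 or 4 of day 1 or replicate 4 of the late group. In the second probe set that change was 0.29 ± 0.15 (adjusted p = 0.0975). No direction for Jun in late tumours is given, since its probe sets differ in sign. At days 1, 2, 3, 6 and 9 neither Jun probe set was called.

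**Figure D3:**
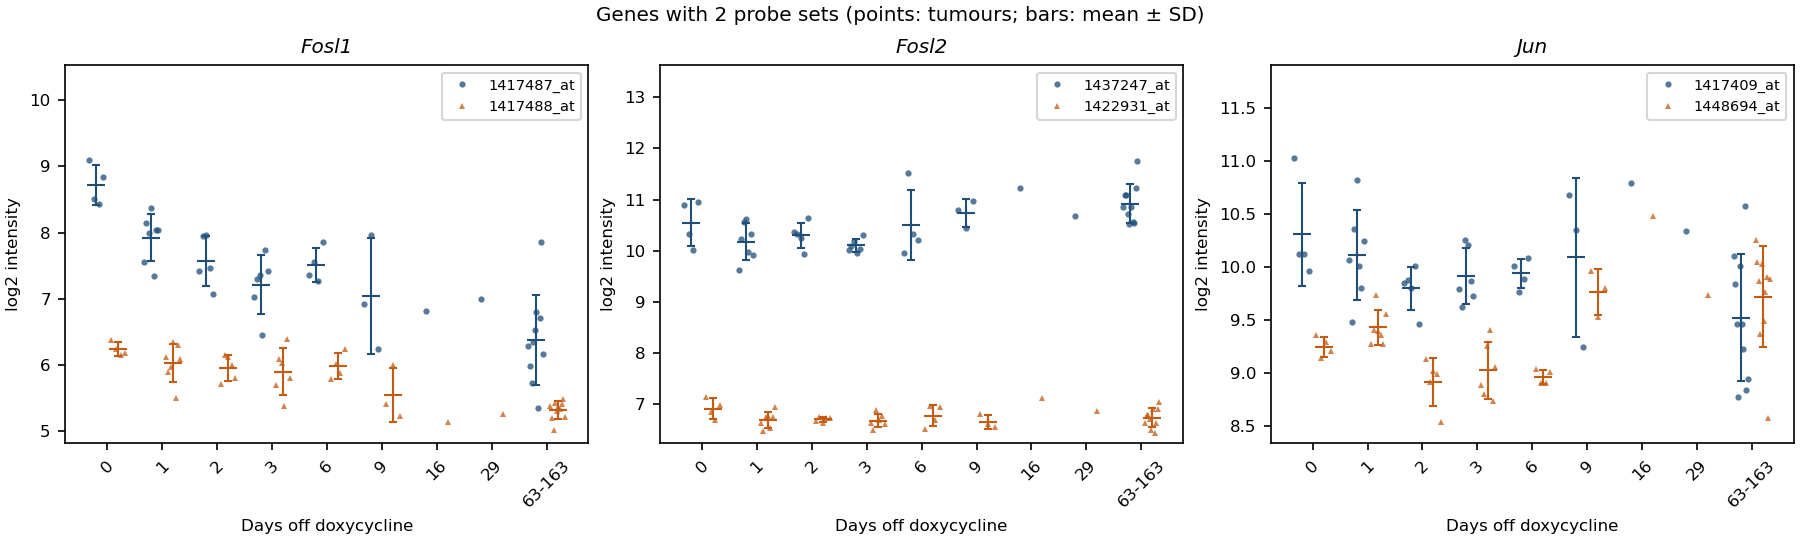
Log2 intensity by days off doxycycline for the 3 genes with 2 probe sets; circles are the brighter and triangles the dimmer probe set, and bars are the group mean ± SD. The Fosl1 probe sets both have their lowest mean, among groups of 3 or more tumours, in late tumours, whereas the Jun probe sets part there, with means of 9.52 (1417409_at) and 9.72 (1448694_at) in late tumours against 10.31 and 9.25 at day 0.

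Junb encodes a Jun protein that can hold back Jun activity. It measured 9.76, 8.88, 8.23 and 8.99 at day 0. The tumours of day 3 ran from 7.54 through a median of 7.93 to 8.46 and overlapped day 0 at its lowest tumour. The late tumours ran from 6.16 through a median of 6.97 to 8.60, and the highest overlapped day 0.

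At day 3 Junb was called at the edge of the threshold (-1.01 ± 0.37, adjusted p = 0.049), and it held only on leaving out replicate 3 of day 0 or replicate 5 of day 3, of the 10 tumours left out in turn. Without replicate 1 of day 0 the change was -0.74 (adjusted p = 0.212). In late tumours it was lower by 3.45-fold than at day 0 (change -1.79 ± 0.34, adjusted p = 7.26e-05). Late tumours were lower than those of day 1 as well (-1.42 ± 0.28, adjusted p = 0.000106), and within set 2 the change was -1.36 (adjusted p = 0.00493), but with the gap as a covariate it was -0.24 (adjusted p = 0.538). Within set 2 the gap ran from 0.27 to 4.04 in late tumours and from 0.33 to 1.04 at day 1. The late level of Junb ran along with the Gapdh gap: the 2 tumours with a gap up to 2 measured 8.60 and 8.19, and the 8 others ran from 6.16 to 7.92. With the gap as a covariate the late change was -0.58 (adjusted p = 0.157), and with the 2 tumours alone it was -0.57 (adjusted p = 0.193).

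Over the 10 late tumours Pearson's r between Junb and the gap was -0.90 (permutation adjusted p = 0.00559 over 13 probe sets) and Spearman's rho was -0.89 (adjusted p = 0.0149). Without the 2 tumours farthest from the median gap r was -0.75, and within the 8 late tumours of set 2 it was -0.92. For Jun 1417409_at r was -0.79 (adjusted p = 0.0482) and rho was -0.74 (adjusted p = 0.0769), and r without the 2 farthest tumours was -0.54. The 11 other probe sets gave r between -0.63 (Ier2) and 0.61 (Egr1), with no adjusted p under 0.05. The r of Fosl1 1417487_at was -0.39 (adjusted p = 0.345). Whether RNA quality accounts for any late change was not tested beyond these values.

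**Figure D4:**
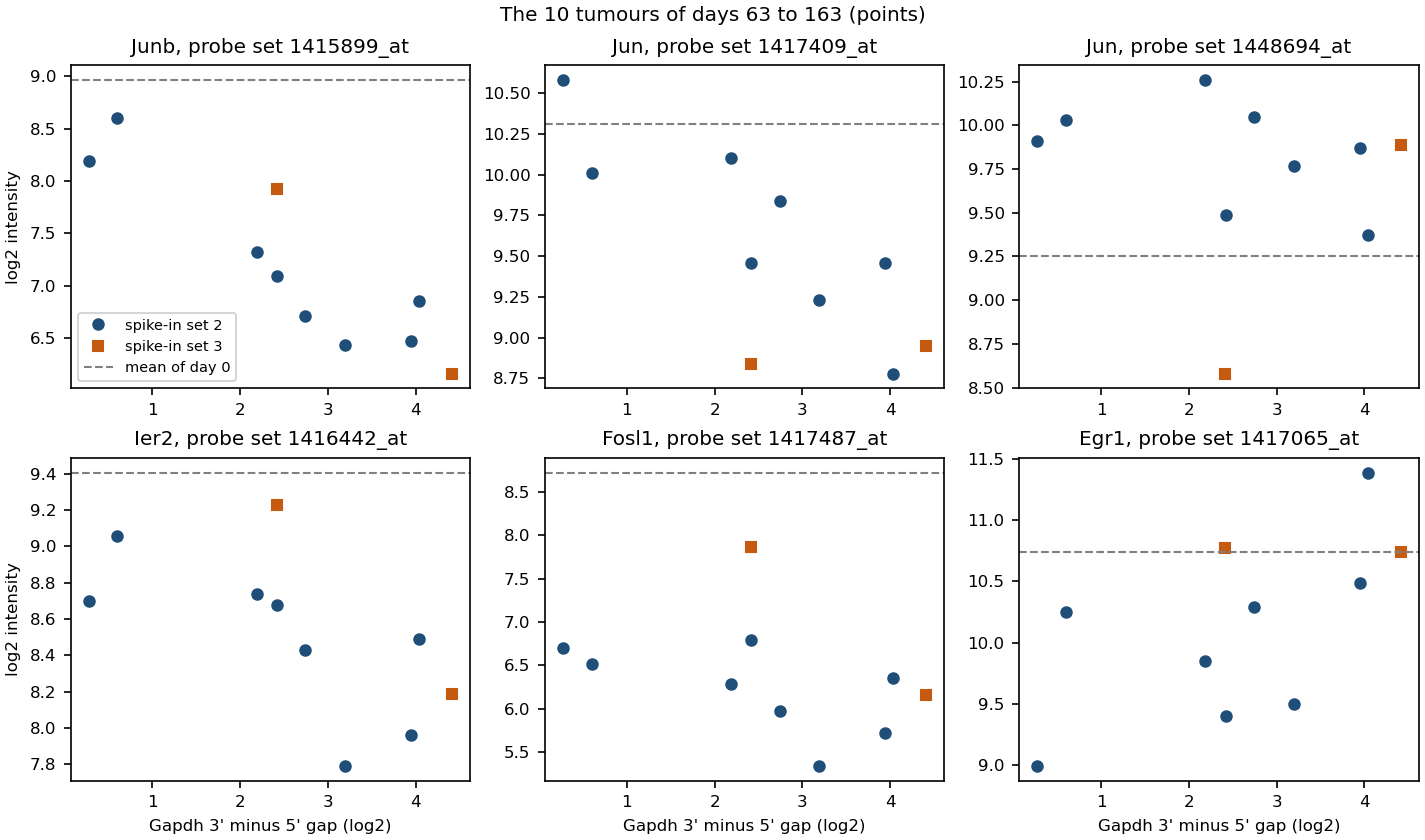
Log2 intensity of 6 probe sets in the 10 late tumours against the 3′ minus 5′ gap of Gapdh in log2 units; circles are spike-in set 2, squares set 3 and the dashed line the mean of day 0. Junb falls with the gap (r = -0.90), while Fosl1 1417487_at stays under its day 0 mean at every gap.

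Egr1 encodes a zinc finger factor whose gene is a direct target of ERK through serum response factor and its ETS partners. At day 0 it ran from 10.22 through a median of 10.69 to 11.37. At day 2 it measured 10.49, 9.80, 9.95, 9.01 and 10.04, and at day 3 it ran from 8.77 through a median of 9.29 to 9.62. At day 6 it measured 9.77, 9.72, 9.54 and 9.17. No tumour of day 3 or 6 reached the lowest tumour of day 0.

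The change of Egr1 was -0.43 ± 0.33 (SE) at day 1 and -0.88 ± 0.36 at day 2, neither called (adjusted p = 0.427 and 0.0889). It was called at day 3 (-1.53 ± 0.34, adjusted p = 0.00187) and at day 6 (-1.19 ± 0.38, adjusted p = 0.0324). The call at day 3 held on leaving out each of its 10 tumours in turn, with changes from -1.70 to -1.32, while that of day 6 was lost without any one of replicates 1 and 4 of day 0 and 3 and 4 of day 6 (changes from -1.19 to -0.98, adjusted p up to 0.12). With a term for spike-in set the day 3 change was -1.19 (adjusted p = 0.479).

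At day 9 Egr1 measured 9.79, 10.23 and 11.20, at day 16 10.82 and at day 29 9.19. The late tumours ran from 8.99 through a median of 10.27 to 11.39, over the whole range of day 0 and below it. Neither day 9 (-0.34 ± 0.41, adjusted p = 0.687) nor the late group (-0.57 ± 0.31, adjusted p = 0.131) was called. With the Gapdh gap as a covariate the late change was -1.36 (adjusted p = 0.00523), and the 2 late tumours with a gap up to 2 measured 10.25 and 8.99. The difference between days 9 and 3 was not tested.

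Ier2, which encodes a small nuclear protein of the immediate early response, measured 9.99, 9.10, 8.85 and 9.69 at day 0. The tumours of day 3 ran from 8.49 through a median of 8.70 to 9.03, and the late ones from 7.79 through a median of 8.58 to 9.23. Both groups overlapped the lower tumours of day 0. Ier2 was called at day 3 (-0.70 ± 0.21, adjusted p = 0.0167) and in late tumours (-0.88 ± 0.19, adjusted p = 0.000353). Without replicate 1 or 4 of day 0 the day 3 call was lost (-0.50 and -0.60, adjusted p = 0.114 and 0.0812), and with the gap as a covariate the late change was -0.46 (adjusted p = 0.13). Late tumours were lower than those of day 1 (-0.60 ± 0.16, adjusted p = 0.00219), by -0.63 within set 2 (adjusted p = 0.012), and the call was lost with the gap as a covariate (-0.19, adjusted p = 0.521).

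Ier3 encodes IEX-1, a stress and growth factor response protein that interacts with ERK. It measured 12.55, 11.20, 10.58 and 11.50 at day 0. The tumours of day 3 ran from 10.00 through a median of 10.32 to 11.14 and overlapped day 0. Of the late tumours 9 lay between 9.15 and 10.49, under the lowest tumour of day 0, and that of day 136 measured 11.64.

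Ier3 was called at day 3 (-1.02 ± 0.35, adjusted p = 0.0338), and the call was lost without replicate 1 of day 0 (-0.66, adjusted p = 0.217), replicate 4 of day 0 or replicate 2, 3 or 4 of day 3. In late tumours it was lower by 2.74-fold than at day 0 (change -1.45 ± 0.32, adjusted p = 0.000387), and with the gap as a covariate the change was -0.96 (adjusted p = 0.0732). Late tumours were lower than those of day 1 (-0.82 ± 0.27, adjusted p = 0.00998), by -0.87 within set 2 (adjusted p = 0.00343), and the call was lost with the gap as a covariate (-0.34, adjusted p = 0.504). At day 9 the change was -1.16 ± 0.41, not called (adjusted p = 0.0915).

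Myc encodes a transcription factor of growth and ribosome production whose gene is an early response gene of many growth factors. It measured 8.76, 8.42, 8.24 and 8.45 at day 0. The tumours of day 3 ran from 7.27 through a median of 7.98 to 8.30, and those of day 9 measured 7.58, 8.30 and 7.39. The late tumours ran from 7.47 through a median of 8.10 to 9.80. All 3 groups overlapped day 0. The changes were -0.55 ± 0.29 at day 3 (adjusted p = 0.175), -0.71 ± 0.34 at day 9 (adjusted p = 0.226) and -0.27 ± 0.27 in late tumours (adjusted p = 0.419). The 2 late tumours with a gap up to 2 measured 7.47 and 7.73, and their change from day 0 was -0.87 (adjusted p = 0.0274).

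How tumours of the same day differed was compared between genes. Each value was set against the mean of its day group and the deviations of the 39 tumours in groups of 2 or more were correlated between genes. Of the 45 pairs, 14 had a permutation p for Pearson's r under 0.05 after adjustment over the pairs, all 14 with a positive r, and 11 of them also for Spearman's rho. The other pairs did not pass, among them 6 with a negative r. The median r was 0.27 over the 45 pairs and 0.02 over all 102509721 pairs of genes tested, and 35.6% of the 45 had an r at or above 0.42, the lowest that passed, against 7.03% of all pairs. With the linear relation to the Gapdh gap removed from the deviations, a step chosen after seeing the data, 20 pairs passed.

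The strongest pairs joined Fosl1 with Ier3 (r = 0.81, rho = 0.77, r = 0.71 without the 2 farthest tumours), Ier2 with Ier3 (r = 0.81, rho = 0.72, 0.75 without the 2) and Junb with Ier2 (r = 0.78, rho = 0.82, 0.78 without the 2). The permutation p adjusted over the 45 pairs was 0.00015 for each of these r, the smallest that the 100000 resamples can give after adjustment over 3 tied pairs. Within spike-in sets 1, 2 and 3, Fosl1 with Ier3 gave r of 0.63, 0.82 and 0.85. Ier2 with Ier3 gave 0.29, 0.93 and 0.95, so this relation was weak within set 1, as was that of Junb with Ier3 (0.19, 0.77 and 0.91).

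Fos and Fosb moved together across tumours (r = 0.73, rho = 0.67, 0.60 without the 2 farthest tumours), with r of 0.83, 0.32 and 0.94 in sets 1, 2 and 3. Fosl1 and Myc gave r = 0.70 (rho = 0.55, 0.52 without the 2), with 0.42, 0.38 and 0.95 in the sets. Fosl1 and Fos gave r = 0.24 (permutation adjusted p = 0.315), with 0.16, 0.69 and -0.17 in the sets. Egr1 was past the threshold with Fosl2 (r = 0.51) and with Fos (r = 0.42, rho = 0.41 with an adjusted p of 0.0737), and its r with Jun was -0.40. Replicate 4 of day 1, the 1 tumour of that day in set 1, was the highest of its day in 7 of the 10 genes.

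**Figure D5:**
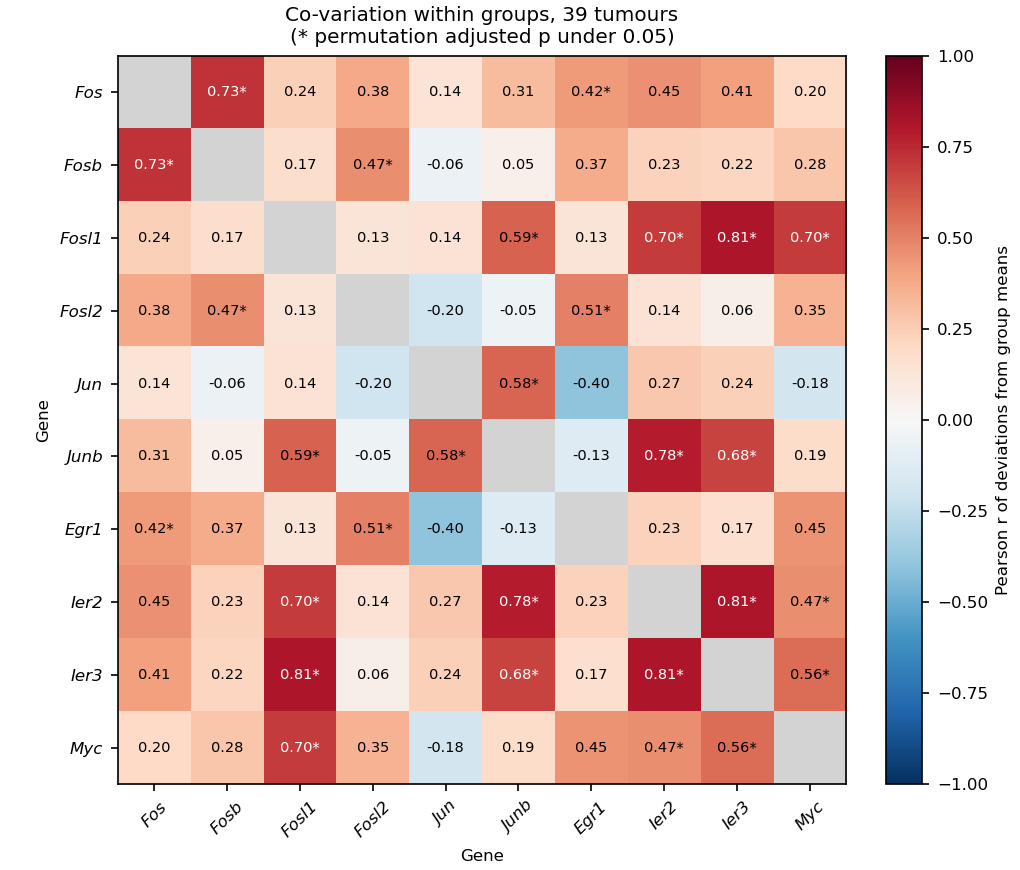
Pearson r between genes of the deviations of 39 tumours from their group means, with an asterisk where the permutation p adjusted over 45 pairs was under 0.05. Fosl1, Junb, Ier2, Ier3 and Myc share several asterisks, and Fos shares one each with Fosb and Egr1.

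The genes whose level was most like that of 4 of these genes over the 41 tumours were found among all genes tested; r is given over the 41 tumours and then within groups over 39. For Fos they were Dusp1, a phosphatase of MAP kinases and itself an immediate early gene (0.66 and 0.82), then Rab11fip1, Tcim, Ccn1 and Ppbp (0.57 to 0.61 over the 41). For Egr1 they were Nupl1, a nuclear pore gene (0.79 and 0.64), Tnfaip1, Rbm15, Slc7a1 and Arv1. For Fosl1 they were Tubb6, a tubulin gene (0.90 and 0.69), Ncs1, Map2k3, the metalloproteinase inhibitor gene Timp1 and Eif4ebp1, an inhibitor of translation. For Myc they were Mrps18b, a gene of the mitochondrial ribosome (0.83 and 0.81), Kti12, the ribosome assembly gene Rrs1, Prss22 and the chaperonin gene Hspd1. No such gene was shared between the 4 lists.

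Other genes of the AP-1 system varied in direction. Of 13 other AP-1 family genes and partners tested, 5 were called lower and 2 higher at day 3, and 4 lower and 3 higher in late tumours, where 21.3% and 46.4% of all genes were called. Jund, the Jun family gene that cells make without stimulation, averaged 9.57 at day 3 and 9.58 in late tumours, against 11.06 at day 0 (changes -1.49 ± 0.24 and -1.48 ± 0.22, adjusted p = 7.85e-05 and 2.46e-06). Batf3, an AP-1 gene of dendritic cells, was called higher at day 1 (1.16 ± 0.21, adjusted p = 0.000556). Of the 10 macrophage markers 6 were called higher at day 1, where 7.57% of all genes were. The mean of the list ran from 10.40 to 10.94 in the tumours of day 1, against 8.66 to 10.02 at day 0. At day 3, when Fosl1, Egr1, Junb, Ier2 and Ier3 were called lower, 7 of the 10 markers were called higher, against 9.74% of all genes. The list means ran from 10.72 to 11.16 at that day. The part of such cells in any change given here was not tested.

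Of 32 other immediate early genes, 7 were called lower and 1 higher at day 3, and 10 lower and 7 higher in late tumours. Of all genes, 11.6% were called lower and 9.74% higher at day 3, and 20.1% lower and 26.3% higher in late tumours. Taken in either direction, the shares of the list were near the 21.3% and 46.4% of all genes called. Their median change was -0.10 at day 3 and -0.01 in late tumours, against -0.02 and 0.05 over all genes. Phlda1 was called lower at day 3 (-1.58 ± 0.30, adjusted p = 0.000397), as was the kinase gene Plk3 (-0.95 ± 0.21, adjusted p = 0.00199). Ptgs2, the gene of the inducible prostaglandin synthase, changed by -2.88 ± 0.61 in late tumours (adjusted p = 0.000237). Ccn2, a matrix protein gene, was called higher at day 1 (1.62 ± 0.40, adjusted p = 0.00606).

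Of 10 genes of serum response factor and its partners, 0 were called at day 1 and 4 lower and 4 higher in late tumours, with a median change of 0.04 there. Of all genes, 13.8% were called at day 1 and 46.4% in late tumours. Srf itself was called lower at day 3 (-0.53 ± 0.17, adjusted p = 0.025), but with arrays centred on their medians 0 of the 10 were called at that day. Of 11 Myc family and partner genes, 1 was called at day 3, where 21.3% of all genes were called. The gene called at day 3 was Mxd3, a partner of Max, at -0.70 ± 0.18 (adjusted p = 0.00653). In late tumours 3 of the 11 were called lower and 3 higher, near the share of all genes. With arrays centred on their medians the late split was 1 lower and 3 higher.

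Of 17 genes known as AP-1 targets, 3 were called lower on day 1, 7 on day 2 and 9 on day 3. On day 6 that count was 9, on day 9 it was 8 and in late tumours 15, and 0 were called higher in these comparisons. The shares of all genes called lower were 6.25%, 8.35%, 11.6%, 6.46%, 1.91% and 20.1%, in the same order. The median change was -1.19 at day 3 and -2.11 in late tumours, against -0.02 and 0.05 over all genes. Hbegf, which encodes a growth factor of the EGF family, averaged 7.14 in late tumours and 10.04 at day 0 (change -2.90 ± 0.32, adjusted p = 3.01e-08). Itga5, the gene of an integrin chain, averaged 6.22 and 8.34 in the same groups (change -2.12 ± 0.20, adjusted p = 4.3e-09). With a term for spike-in set 0 of the 17 were called at day 3 and 12 in late tumours. Within set 2, for late tumours against day 1, 14 were called lower and 1 higher, where all tumours gave 13 lower and 0 higher. The shares of all genes called in these fits are not given here, so their counts have no background beside them.

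The other ERK-induced genes were called lower in 8 of 13 at day 1, 11 at day 3 and 12 in late tumours, and in none higher. Of all genes, 6.25%, 11.6% and 20.1% were called lower in these comparisons. With arrays centred on their medians 6 of the 13 were called lower at day 1. Spred3, an inhibitor of the RAS to ERK pathway, changed by -1.13 ± 0.20 at day 1 (adjusted p = 0.000403) and by -1.92 ± 0.20 at day 3 (adjusted p = 6.92e-07). Some of these genes, such as Ccnd1, are in both lists. At day 1, when 8 of these 13 were called, 0 of the 10 immediate early genes were, although the median change was -0.62 for those 13 and -0.36 for the 10.

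Markers of other tissues also moved in late tumours. Of 7 Schwann cell and nerve markers 5 were called higher there, and the mean of that list ran from 9.29 to 10.43 in late tumours, against 6.86 to 8.15 at day 0. The muscle list ran from 5.41 to 9.85 in late tumours, against 5.53 to 5.74 at day 0, with 4 of 8 called higher. The adipocyte list ran from 6.70 to 8.38 in late tumours, against 5.61 to 6.35 at day 0, with 2 of its 4 tested genes called higher. Of 8 endothelial markers 4 were called higher in late tumours, and of 9 fibroblast markers 4 were called higher and 1 lower. The keratinocyte list ran from 5.97 to 11.99 in late tumours, against 6.70 to 9.24 at day 0, with 1 of 8 called higher. The neutrophil list ran from 8.07 to 10.83 in late tumours, against 7.47 to 9.64 at day 0, with 2 of 6 called higher and 1 lower. These counts stand beside 26.3% of all genes called higher and 20.1% called lower in late tumours. Of 10 T and NK cell markers 9 were called higher at day 1, against 7.57% of all genes, and 0 in late tumours. The part of these tissues in the late changes of Fosl1, Junb, Ier2 and Ier3 was not tested.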

How the data were processed

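RNA of 41 tumours was measured on Affymetrix mouse genome arrays. The deposited values are intensities on a linear scale, 1 per probe set and array. RMA and MAS5 are both named in the submitters' processing notes, with no version and no word on which made the table; a genome build was not given in the sources used here. Arrays have no read depth, and their number limits the precision.

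Values became log2(intensity + 16), quantile normalised. Of 45101 probe sets 34958 named 1 gene, 932 several and 9211 none in the platform table; 34754 matched the RefSeq table by Entrez identifier and 0 symbols were updated. The brightest probe set stood for a gene. A single fit (limma 3.58.1, R 4.3.3), 1 mean for each group (9 groups, 32 residual and 2.58 prior degrees of freedom) gave all changes, with Benjamini-Hochberg adjustment over 14319 genes; probe sets were also fitted singly, over 25803. The fit was tested on simulated data. Correlations used 100000 permutations, two-sided, in Python 3.11.15 with numpy 2.4.6.

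Arrays with a log2 bioD value under 12 formed spike-in set 1; of the others, dap under 9.4 gave set 2. The members and lists were chosen with earlier results of these data known. Named genes were the members, the 5 genes most like each of Fos, Egr1, Fosl1 and Myc, and up to 4 called genes of each list by lowest adjusted p. Alternatives were other scaling, a smaller and a larger pseudocount, other filters and probe set rules, robust limma, the compared groups alone, spike-in set, Gapdh gap, late days split, and each tumour left out. Figures used matplotlib 3.10.9.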

Additional observations from a re-analysis of the deposited data

Results flagged for a closer look

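Of 78 combinations of a probe set and a day group of 4 to 10 tumours, 4 held a tumour whose gap to its nearest neighbour was over Dixon's critical value for the range of the group, where chance gives about 1 in 20. Both cases at day 0 concern replicate 1. It measured 6.85 for Fosb, the other tumours of day 0 lying between 5.19 and 5.28, and 11.03 for Jun 1417409_at, the others lying between 9.96 and 10.12. Without it, 2 of the 10 genes were called at day 3, 0 at day 6 and 4 in late tumours, against 5, 2 and 5 with it. The share of all genes called without it is not given here, so the loss cannot be read as particular to these genes.

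Both late cases concern the tumour of day 136, of spike-in set 3. It measured 9.80 for Myc, the other late tumours lying between 7.47 and 8.62, and 8.58 for Jun 1448694_at, the others lying between 9.37 and 10.26. Without this tumour 5 of the 10 genes were called in late tumours against day 0, as with it.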

How the results depend on the processing

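Of 533 values of the 20 gene changes called, recomputed under the alternatives, 452 kept direction and call, 78 kept direction and lost the call, and 3 reversed, all for Jun in late tumours: 0.046 against day 0 with the Gapdh gap as a covariate, and against day 1 0.22 with it and 0.18 without tumours of a gap over 2. Of 1359 values of changes not called, 15 became called, and 80 changed sign while uncalled on both sides. Blocking on spike-in set called 0 genes at days 2, 3 and 6, and within 1 set 0 at day 9 and 0 in late tumours against day 0, where set 3 holds 2 late tumours. With the gap as a covariate 2 were called at day 2, 3 at day 6, 2 in late tumours against day 0 and 2 against day 1. Without tumours of a gap over 2 the counts were 1 at day 1, 2 at day 2, 0 at day 9 and 1 for late tumours against day 1. A fit of the compared groups alone called 1 at day 1 and 0 at day 9, and a larger pseudocount called 1 at day 1. Leaving out 1 tumour gave 0 to 0 genes at day 1, 0 to 1 at day 2, 2 to 5 at day 3, 0 to 2 at day 6, 0 to 3 at day 9, 4 to 6 in late tumours against day 0, 5 to 6 against day 1 and 0 to 0 for day 6 against day 2. The causes were not tested. Without replicate 1 of day 0 and the tumour of day 136 together, chosen after seeing the data, 4 were called in late tumours. The pairs of co-varying genes numbered 12 to 20 under the alternatives, against 14. No paired analysis was possible because the labels give no pairing, and replicates were numbered in order of deposit. Signals near the array's background, as of Fosb, limit how small a change can be seen.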
